A study of Mus musculus with 6 samples.

Results

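Genes of the proteasome were followed in activated T cells with and without Drp1, the product of Dnm1l, a GTPase needed for mitochondrial fission. Members were the rows of the count table whose symbol begins with Psma, Psmb, Psmc, Psmd, Psme or Psmg and a digit, leaving out the immunoproteasome subunits Psmb8, Psmb9 and Psmb10 and pseudogenes. This gave 46 of 45808 rows. Symbols, not measured values, chose them, though the choice was made with earlier results of these data known. One of the 46, Psmc3ip, carries the prefix by name but encodes a meiotic recombination factor, so it was kept out of the counts below. The other 45 fall into the alpha and beta rings of the core particle, the ATPases and non-ATPases of the regulatory particle, alternative activators and assembly chaperones.

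The samples were T cells purified from spleens of mice on a C57BL/6 background (age 2M in the labels) and stimulated in culture through CD3 and CD28, with IL-2 added. Of 6 libraries, 3 were wild type and 3 were labelled Drp1-/- (called KO here). The promoter or cell type that directed the deletion, and whether replicates were separate or pooled animals, were not given in those labels. The p-values therefore measure the spread between these libraries, which may be technical. Total counts ran from 24738017 to 34730475, and the members held 0.453% to 0.626% of them. Dnm1l stood at 123, 117 and 117 CPM (counts scaled to library size with TMM factors, so that depths can be compared) in wild type and 92.6, 92.9 and 100.7 CPM in KO. It was thus lower in all 3 KO libraries, though a count over the whole gene includes exons that a deletion leaves in place. The summed level of 12 T cell markers was 4280 to 4350 CPM in wild type, against 3840 to 3910 CPM in KO, with 9 lower and 1 higher in KO. Of markers of other cells, 10 B cell genes summed to 200 to 235 CPM in wild type, against 217 to 234 CPM in KO, and 12 myeloid genes to 34.2 to 38.3 and 29.0 to 31.8 CPM, with Marco, C1qa and C1qb at 0 in every library and 2 higher and 3 lower of 5 tested. Sums of 8 genes listed as NK cell markers were 66.5 to 107 CPM in wild type, against 165 to 197 CPM in KO. Most of it was Prf1 (40.6 to 76.6 and 120.4 to 145 CPM) and Eomes (15.1 to 21.1 and 30.8 to 36.4 CPM). Whether Prf1 and Eomes RNA came from NK cells or from the T cells themselves was not tested. Of 6 NK genes tested 5 were higher and 0 lower by edgeR, among them Ncr1, at 0.085, 0.269 and 0.19 CPM in wild type, against 0.56, 0.774 and 0.568 CPM in KO. Sums of 10 granulocyte and mast cell genes were 55.4 to 63.1 CPM in wild type, against 31.2 to 33.4 CPM in KO (S100a8, S100a9 and Elane at 0). Most of that sum was Kit, the 1 gene lower, at 53.4 to 61.1 and 24.1 to 25.5 CPM. The other 4 of 5 tested, Cpa3, Ms4a2, Fcer1a and Mcpt8, were low but higher in KO, such as Cpa3 at 0.639, 0.94 and 0.508 CPM in wild type, against 2.63, 3.81 and 3.14 CPM in KO. Sums of 10 platelet and erythroid genes were 7.92 to 10.4 and 21.6 to 24.4 CPM (Hba-a2 at 0), with 4 of 4 tested higher. For 8 gamma-delta T cell genes the sums were 54.4 to 58.6 and 110 to 129 CPM, with 6 higher and 1 lower of 8 tested. The 1 lower was Blk, which is also on the B cell list. By edgeR, 26.7% of all tested genes were higher in KO and 26.1% lower. Xist, the silencing RNA of the inactive X, had 0, 3 and 1 counts in wild type and 16862, 12950 and 14744 counts in KO, and the Y-linked Ddx3y, Kdm5d, Eif2s3y and Uty were read in all 6 libraries and lower in KO by log2 changes of -0.45 to -0.88. Each KO library thus held both Xist and Y-linked RNA, while wild type held Y-linked RNA and hardly any Xist. Whether the KO libraries pooled cells of male and female animals was not tested. The groups also differed in sex-linked transcripts, and what goes with these cannot be told apart from the genotype. The part of the marker differences in the results below was not tested, and in bulk RNA fewer cells of a type and less RNA per cell cannot be told apart.

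The proteasome degrades proteins tagged with ubiquitin. Its barrel-shaped core particle (20S) is built of stacked alpha and beta rings, and the beta ring holds the proteolytic sites. A regulatory particle (19S) recognises the ubiquitin chain, removes it, and unfolds the substrate through a ring of ATPases. In lymphocytes the catalytic beta subunits are often replaced by immunoproteasome subunits, which change the peptides offered to MHC class I. Dividing T cells also rely on the proteasome to remove cell cycle regulators and inhibitors of NF-kB.

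Most proteasome genes were modestly higher in KO. Of the 43 genes left after Psmc3ip and 2 tissue-restricted forms described below are set aside, 35 rose, 2 fell and 6 did not pass (edgeR quasi-likelihood test, Benjamini-Hochberg adjusted p under 0.05 over all 14209 tested genes). Over all tested genes, 26.7% rose and 26.1% fell, 52.9% in all. The median log2 fold change of the 43 was 0.33, a 1.26-fold difference, against 0.01 for all tested genes. All 3 KO libraries lay above all 3 wild-type libraries for 36 of the 43, against 32.5% of all tested genes, and below them for 2, against 30.8%. No member changed as much as 2-fold apart from the barely expressed Psma8. The rise was shared by members of the core particle, where 13 of 14 rose and 0 fell (median 0.34). It was shared by members of the regulatory particle too, where 14 of 17 rose and 1 fell (median 0.44). Subunits without the Psm prefix are not in these counts. None of the 6 members that did not pass reached an unadjusted p of 0.05 in edgeR, nor an adjusted p of 0.05 with DESeq2 or limma-voom. Without wild-type replicate 1, on which several values below depend, 36 of the 43 rose and 1 fell, with a median of 0.34. Relative to the wild-type mean, the members' median log2 level was -0.05, 0.04 and -0.00 for wild-type libraries, against 0.27, 0.39 and 0.36 for the KO libraries in replicate order. The groups did not overlap, and KO replicate 1 was the lowest of the KO libraries.

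**Figure D1:**
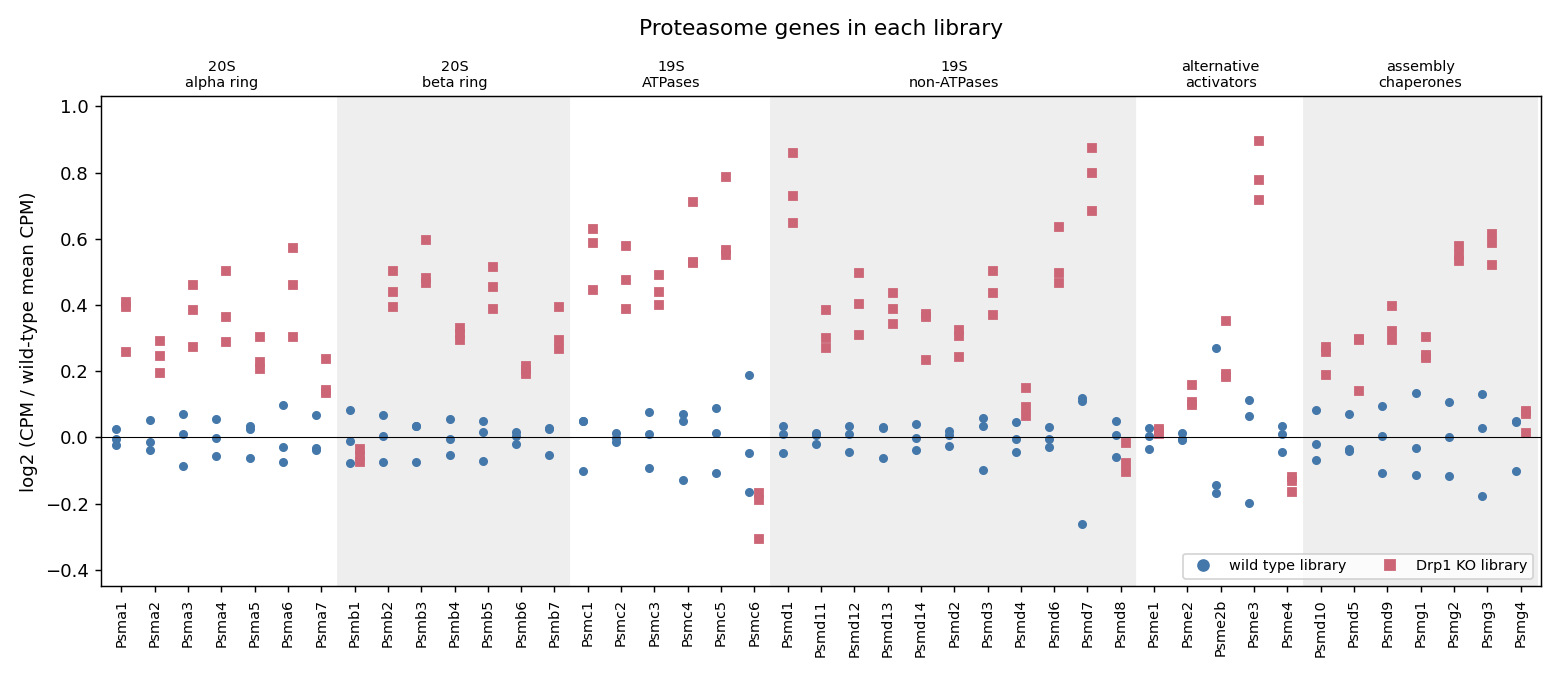
Log2 ratio of CPM to the wild-type mean (y axis) of 43 proteasome genes (x axis) in each library, grouped by structure; circles are wild-type and squares KO libraries. KO libraries lie above wild type for 36 genes, while Psmc6 and Psme4 lie below.

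**Figure D2:**
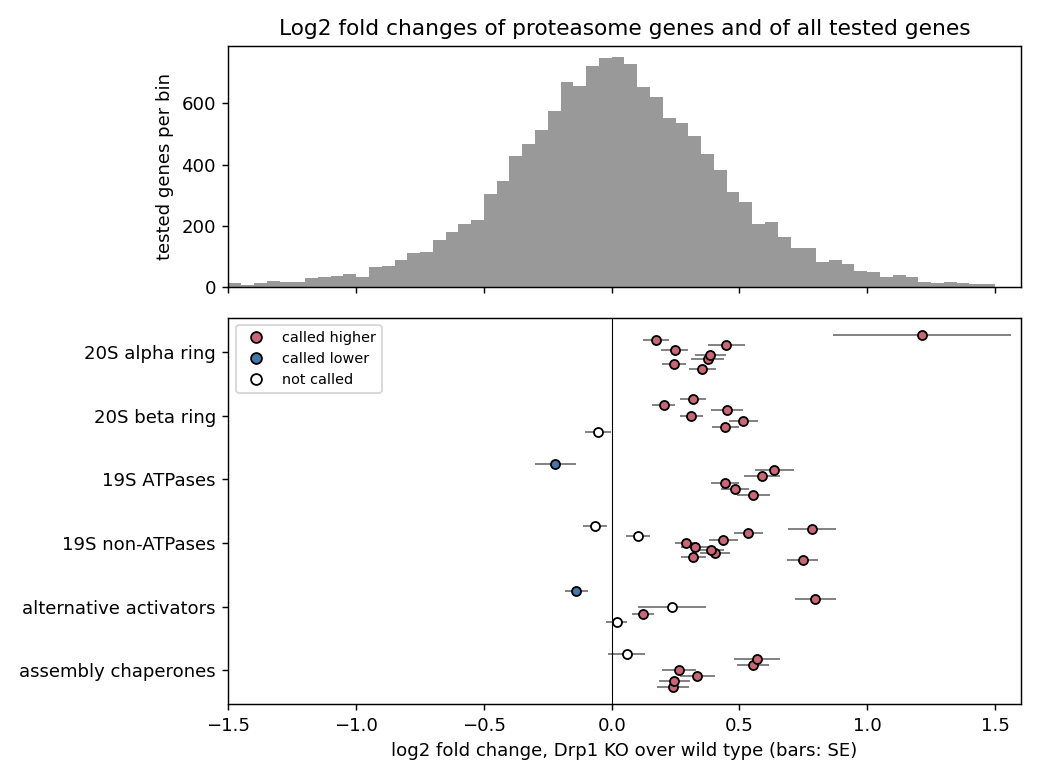
Log2 fold change of KO over wild type (x axis) for all tested genes with a change under 1.5 (upper panel, genes per bin) and for proteasome genes by structural group (lower panel, points with SE). The members centre near 0.33 and all tested genes near 0.01; Psma8, at 1.21, is the point with the widest error bar.

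Because so many members moved together, their promoter windows were read from RefSeq (GRCm38.p6), from 250 bases before to 50 after the gene start. A window was found for 37 of the 45 genes, 40 windows in all; Psma8, Psmb1, Psmb2, Psmb7, Psmc3, Psmd3, Psmd7 and Psmg2 were not used here. On both strands 4 motifs were searched: TGACNNNGC, the core of elements bound by Nrf1 and Nrf2 with small Maf proteins, CCAAT, bound by NF-Y, CACGTG, the E-box bound by Myc with Max, and CCGGAAG, bound by ETS factors. The ETS-type letters were in 15 of 40 member windows (37.5%), against 17.4% of 12364 windows of tested genes and 8.86% of all 32851 windows. By gene they were in 11 of 29 that rose and in 3 of the 8 others, which include the untested Psmb11. CCAAT was in 32.5% of member windows (37.7% of windows of tested genes), TGACNNNGC in 15% (14.6%) and CACGTG in 7.5% (9.87%). Matches to the 4 motifs describe letters, not binding. The windows below were chosen to set genes that rose, Psme3, Psmc1, Psmd6, Psmb5 and Psmd1, beside the pair that fell, Psmc6 and Psme4. Capitals mark matches to any of the 4 motifs; each window is on the strand of its gene, at chr11:101315963-101316262 (plus strand), chr12:100109952-100110251 (plus), chr14:14120896-14121195 (minus), chr14:54617946-54618245 (minus), chr1:86064369-86064668 (plus), chr14:45329574-45329873 (plus) and chr11:30771525-30771824 (plus), in the order printed.
Psme3: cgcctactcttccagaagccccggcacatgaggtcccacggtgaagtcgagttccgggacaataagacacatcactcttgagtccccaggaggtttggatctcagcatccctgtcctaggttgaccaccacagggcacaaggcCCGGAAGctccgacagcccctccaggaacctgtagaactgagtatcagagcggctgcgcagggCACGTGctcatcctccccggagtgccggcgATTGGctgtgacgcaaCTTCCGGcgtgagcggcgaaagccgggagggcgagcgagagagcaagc
Psmc1: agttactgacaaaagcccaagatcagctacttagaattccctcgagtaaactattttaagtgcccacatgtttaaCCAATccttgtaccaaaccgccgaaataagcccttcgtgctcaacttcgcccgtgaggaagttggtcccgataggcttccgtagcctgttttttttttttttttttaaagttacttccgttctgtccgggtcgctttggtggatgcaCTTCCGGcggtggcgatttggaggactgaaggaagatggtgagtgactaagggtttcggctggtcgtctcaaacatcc
Psmd6: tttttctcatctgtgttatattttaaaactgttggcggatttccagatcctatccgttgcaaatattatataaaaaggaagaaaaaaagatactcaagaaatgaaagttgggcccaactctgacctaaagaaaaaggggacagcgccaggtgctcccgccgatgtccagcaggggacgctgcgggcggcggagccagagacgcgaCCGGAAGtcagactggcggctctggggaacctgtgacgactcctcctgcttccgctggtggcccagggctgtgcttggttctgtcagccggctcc
Psmb5: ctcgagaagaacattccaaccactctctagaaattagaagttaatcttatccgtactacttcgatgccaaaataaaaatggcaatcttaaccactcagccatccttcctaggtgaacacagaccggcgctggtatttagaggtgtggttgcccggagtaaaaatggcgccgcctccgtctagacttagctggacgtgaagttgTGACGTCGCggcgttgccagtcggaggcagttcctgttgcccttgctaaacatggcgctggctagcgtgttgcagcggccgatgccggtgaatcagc
Psmd1: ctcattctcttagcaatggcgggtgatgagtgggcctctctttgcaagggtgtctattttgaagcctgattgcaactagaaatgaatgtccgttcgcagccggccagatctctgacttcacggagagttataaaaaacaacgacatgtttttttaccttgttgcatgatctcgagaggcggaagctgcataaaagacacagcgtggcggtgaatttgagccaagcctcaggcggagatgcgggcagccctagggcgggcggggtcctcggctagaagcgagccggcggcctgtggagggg
Psmc6: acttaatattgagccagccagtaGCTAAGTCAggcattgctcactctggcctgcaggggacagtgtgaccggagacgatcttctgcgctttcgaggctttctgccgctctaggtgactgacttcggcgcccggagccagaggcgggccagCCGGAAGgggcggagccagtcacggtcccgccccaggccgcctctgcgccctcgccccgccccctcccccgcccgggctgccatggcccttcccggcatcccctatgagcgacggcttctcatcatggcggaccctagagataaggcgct
Psme4: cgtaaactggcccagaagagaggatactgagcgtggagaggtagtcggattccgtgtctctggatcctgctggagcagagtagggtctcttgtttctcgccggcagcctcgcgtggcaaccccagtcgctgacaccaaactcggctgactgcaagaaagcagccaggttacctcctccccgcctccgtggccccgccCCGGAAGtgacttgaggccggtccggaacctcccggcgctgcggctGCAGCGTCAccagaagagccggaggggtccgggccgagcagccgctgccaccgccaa
Psme3, which had the largest rise of the activators, holds an E-box at position -44 from the gene start, an ETS-type match at -107 and another at 3. It also holds a CCAAT match at -14. The falling genes Psmc6 and Psme4 also hold an ETS-type match, at -100 and -53, and a TGACNNNGC match each, at -227 and -7. By gene, TGACNNNGC was in 4 of 29 that rose, among them Psmb5 at -47, and in 2 of the 8 others. The window of Psmd1, one of the strongest rises, holds none of the 4. That window begins at 86064369, just before the GENCODE start of the gene at 86064387. Sequence further upstream of that start was therefore not searched for Psmd1.

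The alpha ring forms the gated entrance of the core particle, and each of its 7 general subunits was higher in KO. The smallest adjusted p was that of Psma1 (chromosome 7, 114264606 to 114276118, mm10), the alpha6 subunit, at 169, 175 and 171 CPM in wild type, against 205, 226 and 228 CPM in KO. KO replicate 1 was nearest to wild type, and the groups did not overlap. The rise was 0.36 ± 0.05 on the log2 scale (± SE; adjusted p = 0.000347 by edgeR). Psma6, alpha1, had the largest rise of the ring, from 118, 133 and 122 CPM in wild type to 154, 185 and 171 CPM in KO (means 124 ± 7.80 and 169.9 ± 15.7, SD, n = 3 each; log2 0.45 ± 0.07, adjusted p = 0.000599 by edgeR). Every KO library was above every wild-type library, with KO replicate 2 the highest. Psma4, alpha3 (log2 0.39 ± 0.06), and Psma3, alpha7 (log2 0.38 ± 0.06), rose by similar amounts. Psma5, alpha5 (log2 0.25 ± 0.05), and Psma2, alpha2 (log2 0.24 ± 0.05), rose less. The smallest rise was that of Psma7, alpha4 (log2 0.17 ± 0.05, adjusted p = 0.0165 by edgeR). Its call was lost without wild-type replicate 3 (adjusted p = 0.0642 by edgeR) and without KO replicate 2 (0.0826).

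Psma8 encodes the form of alpha4 that is known from the testis. It had only 6, 7 and 5 counts in wild type and 19, 11 and 20 counts in KO. Its log2 fold change of 1.21 ± 0.35 (adjusted p = 0.0141 by edgeR) therefore rests on a few reads, and it passed the filter on low counts through the KO libraries, where it was higher. The call was lost with DESeq2 (adjusted p = 0.0717), without wild-type replicate 3 (0.0622, edgeR) and without KO replicate 3 (0.0589, edgeR). Psmb11, the beta5 form of the thymic cortex, had 0 counts in every library and was not tested.

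In the beta ring 6 of 7 general subunits rose and none fell by the edgeR test, including the genes for all 3 standard catalytic sites. Psmb5, beta5, which carries the chymotrypsin-like site, stood at 20.6, 21.9 and 22.4 CPM in wild type, against 29.6, 30.9 and 28.3 CPM in KO (log2 0.45 ± 0.06, adjusted p = 0.000298 by edgeR). Psmb6, beta1, the caspase-like subunit, was at 112, 115 and 114 CPM in wild type, against 129.9, 132 and 131 CPM in KO (log2 0.20 ± 0.04, adjusted p = 0.00312 by edgeR). Psmb7, beta2, the trypsin-like subunit, was at 129, 137 and 136 CPM in wild type, against 161, 176 and 164 CPM in KO (log2 0.32 ± 0.05, adjusted p = 0.000614 by edgeR). The groups did not overlap for any of the catalytic genes, and the size of the rise differed among them. Psmb7 shares 405 bases of exon with Nek6 on the opposite strand, and Nek6 went from 1601 to 2428 counts in wild type to 3393 to 3781 counts in KO. Whether the counting used strand is not stated in the labels, and without it reads of that stretch cannot be told apart.

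Among the structural beta subunits, Psmb3, beta3 (chromosome 11, 97703399 to 97713500), had the largest rise of the ring. It stood at 65.0, 70.1 and 70.1 CPM in wild type, against 94.6, 103 and 95.5 CPM in KO (log2 0.52 ± 0.06, adjusted p = 8.94e-05 by edgeR). Psmb2, beta4 (log2 0.45 ± 0.05), and Psmb4, beta7 (log2 0.31 ± 0.05), rose as well. Psmb1, beta6, was the exception, at 294, 275 and 263 CPM in wild type, against 264, 267 and 271 CPM in KO. Its groups overlapped and its log2 fold change was -0.05 ± 0.05 (adjusted p = 0.384 by edgeR), or 0.02 when scaled by library totals alone.

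The 6 ATPases of the regulatory particle form the ring that unfolds substrates and opens the core. Of these, 5 rose together and Psmc6 fell. Psmc5, Rpt6 (chromosome 11, 106256154 to 106263120), had the largest estimate, from 60.8, 69.6 and 66.0 CPM in wild type to 96.0, 113 and 97.0 CPM in KO (log2 0.64 ± 0.07, adjusted p = 0.000121 by edgeR). Psmc1, Rpt2, was at 81.9, 90.9 and 90.9 CPM in wild type, against 119.6, 136 and 132 CPM in KO (log2 0.55 ± 0.06, adjusted p = 0.000114 by edgeR). Psmc4, Rpt3 (log2 0.59 ± 0.07), Psmc2, Rpt1 (log2 0.48 ± 0.06), and Psmc3, Rpt5 (log2 0.44 ± 0.06), lay close to them. Exons of Psmc3 overlap Slc39a13 on the opposite strand over 215 bases, and Slc39a13 had 737 to 1038 counts in wild type and 816 to 1010 counts in KO.

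Psmc6, Rpt4 (chromosome 14, 45329788 to 45349705), stood at 285, 242 and 223.4 CPM in wild type, against 202, 219.6 and 222.6 CPM in KO. The lowest wild-type library and the highest KO library nearly met. The log2 fold change was -0.22 ± 0.08 (adjusted p = 0.0423 by edgeR). Without wild-type replicate 1, its highest library, the value was -0.12 (adjusted p = 0.0546 by edgeR), so the size of the fall depended on that library. The call was also lost without wild-type replicate 2 (0.0543), without KO replicates 1, 2 and 3 (0.141, 0.0804 and 0.0695), and with library totals alone as the scaling (-0.14, 0.114), all by edgeR. Under none of these settings did Psmc6 rise with the other ATPases.

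The non-ATPase subunits receive and process the ubiquitin chain, and 9 of 11 rose with none lower by the edgeR test. Psmd7, Rpn8 (chromosome 8, 107580381 to 107588464), a lid subunit that pairs with the deubiquitinase, had the largest estimate. It was at 64.7, 84.2 and 83.6 CPM in wild type, against 124, 142 and 135 CPM in KO (log2 0.79 ± 0.09, adjusted p = 0.000137 by edgeR). Wild-type replicate 1 was the lowest, and without it the log2 fold change was 0.67, below the 0.72 of Psmd1. Psmd1, Rpn2 (chromosome 1, 86064387 to 86139151), a scaffold of the base, had the smallest adjusted p of all members that are proteasome genes. It went from 87.6, 92.7 and 91.3 CPM in wild type to 142, 164 and 149.9 CPM in KO (log2 0.75 ± 0.06, adjusted p = 2.99e-05 by edgeR). Psmd2, Rpn1, the other scaffold, rose less (log2 0.29 ± 0.04).

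Of the remaining lid subunits, Psmd6, Rpn7 (log2 0.54 ± 0.06), Psmd3, Rpn3 (log2 0.44 ± 0.06), Psmd12, Rpn5 (log2 0.40 ± 0.06), and Psmd13, Rpn9 (log2 0.39 ± 0.05), rose. Psmd14, Rpn11, the deubiquitinase that strips the chain (log2 0.33 ± 0.05), and Psmd11, Rpn6 (log2 0.32 ± 0.05), rose as well. Psmd13 shares 342 bases of exon with Sirt3 on the opposite strand, which had 425 to 574 counts in wild type and 555 to 664 in KO. Psmd4, Rpn10, a ubiquitin receptor, did not pass, at 131, 127 and 123 CPM in wild type, against 133, 141 and 136 CPM in KO (log2 0.10 ± 0.05, adjusted p = 0.0952 by edgeR). It did pass without wild-type replicate 1 (log2 0.12, adjusted p = 0.0288 by edgeR), with upper quartile factors (0.0416) and with library totals alone (0.00738). Psmd8, Rpn12, did not pass either, at 239.7, 233 and 223 CPM in wild type, against 219.5, 229 and 215 CPM in KO (log2 -0.07 ± 0.05, adjusted p = 0.266 by edgeR).

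Of the 31 general subunits, 3 of the 4 that did not rise, Psmb1, Psmc6 and Psmd8, were among the 4 with the most counts in wild type (278, 250.3 and 232 CPM). Per kilobase of exon, Psmd8 was at 75.8 ± 2.81 CPM per kb in wild type, the highest of the 11 non-ATPases, and at 72.4 ± 2.30 in KO. Psmc6 was the highest ATPase in wild type, at 71.6 ± 9.10 CPM per kb against 17.0 to 47.0 for the other 5. In KO it was at 61.4 ± 3.13 CPM per kb, below Psmc5 at 73.1 ± 6.81 and near Psmc1 at 66.9 ± 4.42, whose spread overlaps its own. The ratio of Psmc6 to the median of the other ATPases per kilobase was 2.10, 1.58 and 1.53 in wild type and 1.06, 1.08 and 1.13 in KO. That of Psmd8 to the median of the other 10 non-ATPases was 2.77, 2.27 and 2.23 in wild type and 1.74, 1.66 and 1.63 in KO. For Psmb1 and the other 6 beta subunits it was 1.31, 1.18 and 1.14 in wild type and 0.986, 0.953 and 1.00 in KO. Each of the 3 was thus nearer to the other subunits of its group in every KO library. They were singled out after their values were seen, as genes that did not rise, so the lower ratios follow from that choice. Across the 31 general subunits among the members, the SD of the log2 level per kilobase was 0.79, 0.78 and 0.76 in wild type and 0.70, 0.69 and 0.70 in KO. The levels of the subunits were therefore less spread in each KO library than in any wild-type library. Without Psmc6, Psmd8 and Psmb1 the difference was smaller, with a mean SD of 0.77 in wild type and 0.72 in KO. Spearman's rho between the wild-type level per kilobase and the log2 fold change over these 31 genes was -0.52, a description across genes whose axes share the wild-type libraries. Lengths are the union of annotated exons. With the length of the principal transcript in their place, the mean SD over 3 libraries was 0.82 in wild type and 0.71 in KO, and rho was -0.64. With that length the ratio for Psmc6 was 2.68, 2.05 and 1.99 in wild type and 1.24, 1.15 and 1.35 in KO, and it was still the highest ATPase in KO, at 96.2 ± 4.91 CPM per kb against 89.96 ± 2.86 for Psmc3. The narrower spread was not shared by every group: in the alpha ring the mean SD by exon union was 0.71 in wild type and 0.73 in KO. The order of levels changed with the length used: Psma6 was highest of the 31 in wild type by exon union, and Psma7 by principal transcript.

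**Figure D3:**
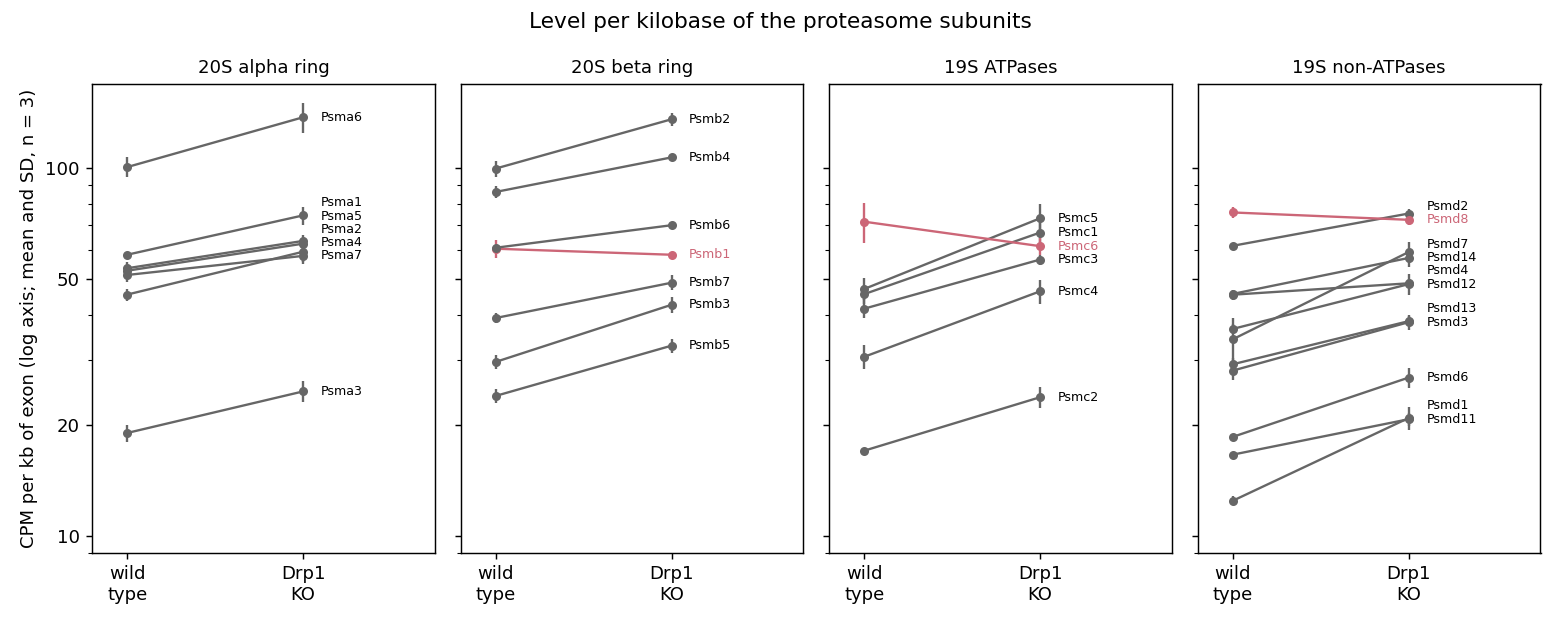
Level per kilobase of exon (y axis, log axis) of the 31 general subunits in wild type and KO (x axis), in 4 panels by structural group; points are means and bars SD of 3 libraries. Psmc6, Psmd8 and Psmb1, in red, do not rise with their group, and Psmc6 goes from 71.6 to 61.4 CPM per kb while the other ATPases rise.

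Alternative activators bind the ends of the core in place of the regulatory particle, and they moved apart. Psme3, PA28gamma (chromosome 11, 101316213 to 101323537), the nuclear activator that acts without ubiquitin, had the largest estimated rise of the 43 genes, within the SE of that of Psmd7. The order changed when libraries were left out: without wild-type replicate 2 it was 0.83 for Psme3 and 0.85 for Psmd7, and without wild-type replicate 1 Psmd1, at 0.72, was above both. It stood at 109, 132 and 136 CPM in wild type, against 206, 233.7 and 216 CPM in KO (log2 0.80 ± 0.08, adjusted p = 6.17e-05 by edgeR), a 1.74-fold difference. Without wild-type replicate 1, the lowest, its log2 fold change was 0.71. Psme1, PA28alpha, an interferon-induced activator tied to antigen processing, was at 279, 284 and 272 CPM in wild type, against 280.4, 283 and 282 CPM in KO. Its groups overlapped (log2 0.02 ± 0.04, adjusted p = 0.712 by edgeR). Psme2, PA28beta, its partner, was at 183, 181 and 180.3 CPM in wild type, against 194, 202 and 195 CPM in KO. The rise was small (log2 0.12 ± 0.04, adjusted p = 0.0352 by edgeR) and the call was lost under 8 of 14 alternatives at the same threshold, with adjusted p up to 0.139. Psme2b, a near copy of Psme2 that may share its reads, was at 4.98 ± 0.89 CPM in wild type, against 5.90 ± 0.40 CPM in KO (adjusted p = 0.165 by edgeR).

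Psme4, PA200 (chromosome 11, 30771726 to 30880361), an activator linked to histone turnover, fell from 164, 155 and 161 CPM in wild type to 143, 147 and 146 CPM in KO. The groups did not overlap (log2 -0.14 ± 0.05, adjusted p = 0.0251 by edgeR). The call was lost without wild-type replicate 3 (0.0587), without KO replicates 1, 2 and 3 (0.0686, 0.064 and 0.0741), and with library totals alone (log2 -0.06, 0.249), all by edgeR. The log2 ratio of Psme1 to Psme3 was 1.34, 1.11 and 0.99 in wild type and 0.44, 0.28 and 0.39 in KO, a difference of -0.78. That of Psme2 to Psme3 was 0.74, 0.46 and 0.40 in wild type and -0.09, -0.21 and -0.14 in KO, a difference of -0.68. Neither pair of groups overlapped. The exact permutation test over libraries (2-sided, 3 against 3) gave p = 0.10 for each, also after adjustment over the 2 ratios, which is the smallest value this design allows.

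Each catalytic beta subunit has an immunoproteasome counterpart, and these did not move alike. Psmb8, which replaces Psmb5, was at 490.3, 507 and 487 CPM in wild type, against 501, 512 and 495 CPM in KO (log2 0.02 ± 0.04, adjusted p = 0.653 by edgeR). Psmb9, which replaces Psmb6, was at 216, 208 and 199.6 CPM in wild type, against 190.4, 178 and 181 CPM in KO (log2 -0.18 ± 0.05, adjusted p = 0.0102 by edgeR). Psmb10, which replaces Psmb7, was at 30.0, 38.7 and 35.5 CPM in wild type, against 49.3, 51.4 and 50.6 CPM in KO (log2 0.53 ± 0.08, adjusted p = 0.000451 by edgeR). The groups overlapped for Psmb8, and KO lay below wild type for Psmb9 and above it for Psmb10. Psmb9 shares 212 bases of exon with Tap1 on the opposite strand, which had 11344 to 14981 counts in wild type and 11087 to 13959 in KO. The call for Psmb9 was lost without KO replicate 2 (0.0543) and with library totals alone (0.075), both by edgeR.

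The log2 ratio of Psmb8 to Psmb5 was 4.51, 4.47 and 4.38 in wild type and 4.04, 4.01 and 4.08 in KO. That of Psmb9 to Psmb6 was 0.94, 0.85 and 0.80 in wild type and 0.55, 0.43 and 0.46 in KO. The ratio of immunoproteasome to standard mRNA was thus lower in every KO library for these pairs, by 0.41 and 0.38. For Psmb10 to Psmb7 it was -2.07, -1.79 and -1.91 in wild type and -1.69, -1.75 and -1.68 in KO, a difference of 0.22 in the opposite direction. All 3 pairs were separated between the groups, with p = 0.10 by the exact permutation test (2-sided), the smallest possible with 3 against 3, and 0.10 after adjustment over the 3. For Psmb10 to Psmb7 the groups nearly met, and without wild-type replicate 1 the difference was 0.145. Without KO replicate 1, 2 or 3 its p was 0.2 by the same test.

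**Figure D4:**
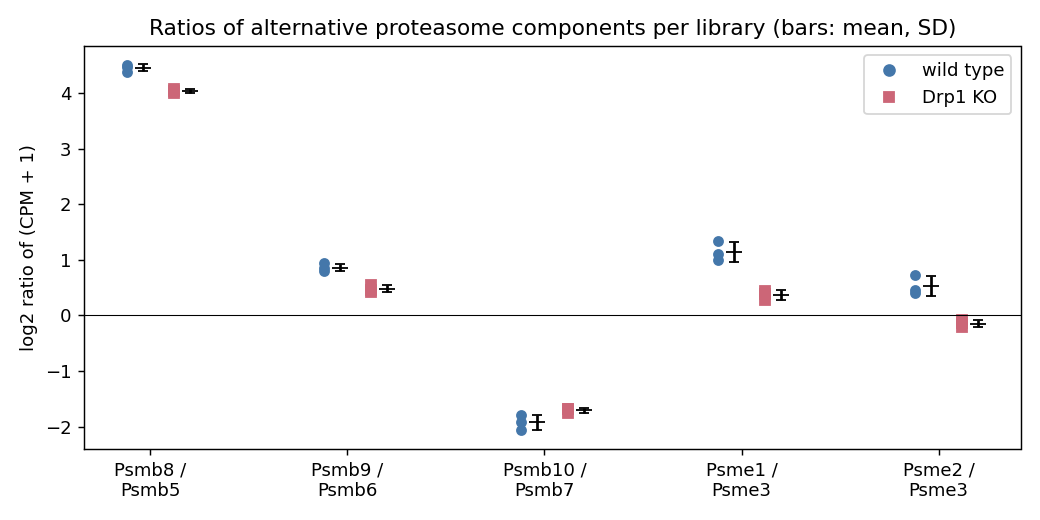
Log2 ratio of CPM plus 1 (y axis) of each immunoproteasome subunit to its standard counterpart and of Psme1 and Psme2 to Psme3 (x axis), per library, with mean and SD of 3 libraries beside the points. Psmb10 to Psmb7 is higher in KO by 0.22, and the other ratios are lower.

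Assembly chaperones help to build the particles and leave the finished complex. Of 7, 6 rose and 0 fell by the edgeR test, beside 26.7% and 26.1% over all tested genes. Psmg2, PAC2, which pairs with Psmg1 to guide the alpha ring, was at 32.8, 38.3 and 35.6 CPM in wild type, against 51.5, 53.1 and 52.2 CPM in KO (log2 0.55 ± 0.06, adjusted p = 0.000106 by edgeR). Psmg3, PAC3, had a similar estimate, from 9.20, 11.4 and 10.6 CPM to 14.9, 15.6 and 15.9 CPM (log2 0.57 ± 0.09, adjusted p = 0.000509 by edgeR). The groups were well separated for both. Of their partners, Psmg1, PAC1, rose (log2 0.26 ± 0.07), and Psmg4, PAC4, did not pass (15.4 ± 0.90 and 16.0 ± 0.39 CPM, adjusted p = 0.522 by edgeR). Of the chaperones of the ATPase ring, Psmd9 (log2 0.33 ± 0.07), Psmd5 (log2 0.24 ± 0.06) and Psmd10, gankyrin (log2 0.24 ± 0.06), rose. Psmd10 is the member on chromosome X. The part of the difference in Xist in the change of Psmd10 was not tested.

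Other proteasome genes, taken from a list of further subunits, maturation factors and bound enzymes, were more often higher than lower. By the same test 7 of 12 were higher, 1 was lower and 4 were not called (median log2 0.20). Over all tested genes 26.7% were higher and 26.1% lower. Uchl5, a deubiquitinase of the regulatory particle (log2 0.48 ± 0.06), Adrm1, the ubiquitin receptor that holds it (log2 0.43 ± 0.06), Pomp, the maturation factor of the core (log2 0.31 ± 0.05), and Usp14, another bound deubiquitinase (log2 0.32 ± 0.06), rose. The gene that fell was AI314180 (log2 -0.15 ± 0.05), the older symbol of Ecpas, a proteasome adaptor.

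Among genes that control proteasome transcription the directions were mixed. By count, 2 of 10 were higher, 4 lower and 4 not called (median log2 -0.09), beside 26.7% higher and 26.1% lower over all tested genes. Nfe2l1, which encodes Nrf1, the factor that raises proteasome genes when activity is short, was at 246 ± 8.81 CPM in wild type, against 229.5 ± 5.77 CPM in KO (log2 -0.10 ± 0.05, adjusted p = 0.0953 by edgeR). Ngly1 (log2 -0.30 ± 0.07) and Ddi2 (log2 -0.22 ± 0.05), the deglycosylase and protease that activate Nrf1, fell. Maff, a small Maf partner, went from 13.8 ± 2.25 to 5.96 ± 0.88 CPM (log2 -1.20 ± 0.14). Of the other small Maf genes, Mafk rose (log2 0.21 ± 0.07, adjusted p = 0.0324 by edgeR), and Mafg, the most abundant of them in CPM, did not pass (77.3 ± 1.98 and 72.8 ± 4.55 CPM, log2 -0.09 ± 0.06). Of the NF-Y subunits, Nfya rose (log2 0.27 ± 0.07) and Nfyb fell (log2 -0.25 ± 0.07).

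Genes for ubiquitin and delivery of substrates were mixed, with 7 of 18 tested higher, 4 lower and 7 not passing (median log2 0.06). These counts are 38.9% and 22.2%, beside 26.7% higher and 26.1% lower over all tested genes. Vcp, the unfoldase p97 (log2 0.45 ± 0.06), and Ubqln4, a shuttle that carries tagged proteins to the proteasome (log2 0.40 ± 0.06), rose. Rps27a, which encodes ubiquitin fused to a ribosomal protein, fell (log2 -0.37 ± 0.05). Ubb, a polyubiquitin gene (log2 -0.10 ± 0.05), did not pass. For comparison with another protein complex of the cytosol, the TRiC chaperonin, 5 of 8 subunit genes were higher, 0 lower and 3 not called (median log2 0.28), over the same libraries; at an unadjusted p of 0.05 in edgeR, 1 was lower (Tcp1, log2 -0.13). Psmc3ip, the gene that only shares the name, stood at 8.93 ± 0.47 CPM in wild type, against 15.6 ± 0.57 CPM in KO (log2 0.80 ± 0.08). Its exons overlap those of Mlx on the opposite strand over 385 bases, and Mlx had 1243 to 1549 counts in wild type and 1780 to 1930 in KO.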

How the data were processed

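The deposited values are unnormalized read counts, 1 row a gene and 1 column a library. Build mm10 and the tools STAR 2.5.2, HTSeq 0.6.1, FastQC, Cufflinks and DESeq2 1.12 are listed, without roles, per the submitters' processing notes. Libraries were made with a stranded poly(A) mRNA kit, per the labels' protocols. The strand setting, the annotation release and the treatment of reads matching several copies are not given in sources used here; genes with near copies are uncertain.

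The whole table (45808 rows) was fitted with edgeR 4.0.16 in R 4.3.3: TMM factors (0.949 to 1.03), filterByExpr (14209 genes kept), quasi-likelihood F test, 4 residual degrees of freedom, Benjamini-Hochberg adjustment. SE is the absolute log2 fold change over the root of F. Precision is set by depth (24738017 to 34730475 counts) and 3 libraries a group. Ratios used a pseudocount of 1 CPM. The procedure was run on simulated counts with few changed genes. Its scaling and error rate where 52.9% of genes are called were therefore not tested. Positions and lengths are from GENCODE M21, the mm10 build. Alternatives were DESeq2 1.42.0, limma-voom 3.58.1, other scalings, filters and thresholds, the replicate number as a block, and each library left out; the transcript length was added after seeing the data. Members, lists and tests were chosen with earlier results of these data known. Library values are given for the largest rise, largest fall and smallest adjusted p of each structural group, for the catalytic, immunoproteasome and PA28 genes; up to 4 called genes with the smallest adjusted p were named per other list, and some genes of these lists are not reported here. Psmb1, Psmd4, Psmd8, AI314180, Shfm1, Nfe2l1, Mafg, Mafk, Nfyb, Ubb, Tcp1, Blk and genes of overlapping exons were named after their values were seen.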

Additional observations from a re-analysis of the deposited data

How the results depend on the processing

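The count of 35 members higher ranged from 33 to 36 over all alternatives (33 at an adjusted p under 0.01, 34 with DESeq2, 35 with the replicate number as a block). The count of 2 lower was 0 with library totals alone and at an adjusted p under 0.01, and 0 to 1 when a library was left out. Library totals alone moved the median of all tested genes to 0.08 and the medians of the members to 0.41 over all, 0.43 for the alpha ring, 0.39 for the beta ring, 0.46 for the non-ATPases, 0.20 for the activators and 0.34 for the assembly chaperones, with 62% of calls over all genes higher in place of 50.6%. With principal transcript lengths the SD of subunit levels was 0.82 in wild type and 0.71 in KO. Values that changed sign were not called: Psmb1 (0.022) and Psmd8 (0.0097) with library totals alone, and Psme1 (-0.0025 without wild-type replicate 3, the lowest, and up to 0.034 without wild-type replicate 2). The replicate block changed no call of a member; same-numbered libraries deviated together with correlations of 0.174, 0.125 and 0.0112 over all tested genes, so the numbers were not taken as pairs. No ratio changed direction. Depth limits Psma8 and Psme2b most among the tested members.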
